A study of Mus musculus with 22 samples.

Results

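The genes described here encode parts of the signalling chain that runs from receptors of the IL-6, IL-10 and IL-4 families to the transcription factor STAT3 and back through the SOCS inhibitors. They are 4 SOCS family genes (Socs1, Socs2, Socs3 and Cish), Stat3 itself, and 5 receptor chain genes (Il6ra, Il6st, Il10ra, Il10rb and Il4ra). They were chosen by symbol, as a list of pathway members, and are 10 of the 54532 genes of the deposited count table. All 10 were among the 16554 genes with enough reads to be tested.

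The RNA came from microglia, the resident macrophages of the brain, of aged male C57BL/6J mice that model Gulf War Illness. From 10 weeks of age the exposed mice (GW) had 10 daily intraperitoneal injections of 2 agents, pyridostigmine bromide at 0.7 mg/kg, which blocks the breakdown of acetylcholine, and the insecticide permethrin at 200 mg/kg. Control mice (Ctrl) were injected with vehicle on the same days, and all mice were then kept until 17.5 months of age. In old age mice received cannabidiol (CBD, 30 mg/kg), a cannabinoid of the hemp plant, or its vehicle, 5% Tween 80 in PBS (Veh), daily for 28 days and then every 2 days for 2 weeks, and finally 1 injection of E. coli lipopolysaccharide (LPS, 0.33 mg/kg) or PBS. LPS is a bacterial cell wall component sensed by innate immune cells, and the brains were taken 24 hours after it. The groups were GW-CBD-LPS (n = 4), GW-CBD-PBS (n = 3), GW-Veh-LPS (n = 3), GW-Veh-PBS (n = 4), Ctrl-Veh-LPS (n = 4) and Ctrl-Veh-PBS (n = 4). CBD was compared within GW mice, since control mice with CBD were not analysed here. Whether a library held the cells of 1 mouse is not stated, so every p-value measures the spread between libraries.

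As background, a cytokine of the IL-6 family binds its own receptor chain, such as IL-6Rα, and this complex recruits the shared chain gp130, the product of Il6st. Kinases of the JAK family on the receptor then phosphorylate STAT3, which enters the nucleus and switches on genes, among them Socs3. SOCS3 protein binds gp130 and JAK and turns the signal off, whereas the IL-10 receptor also works through STAT3 but is not blocked by SOCS3. IL-4Rα mainly uses STAT6, and in macrophages it opens the alternative, repair-type program.

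Promoter sequences of RefSeq (mouse build GRCm38.p6) were found for 7 of the 10 genes. They are shown for 2 genes that carry the LPS response described below (Socs3 and Il4ra), for Stat3, and for Il6st, which went the other way. Each sequence is read 5′ to 3′ on the gene's own strand and is the part of the 250 bases before a RefSeq start that no GENCODE exon of the gene covers. The STAT dimer motif was searched as TTCNNNGAA, a palindrome that is the same on both strands. It was present in 1 of the 7 promoters, that of Socs3, where capitals mark it at chr11:117969512-117969520, bases -154 to -146 from that RefSeq start at 117969366. GENCODE gives Socs3 other starts, at 117969186 for its protein-coding transcript, and at 117969451 and 117970047 for 2 non-coding transcripts. The stretch shown for Socs3 therefore lies upstream of the protein-coding start and within an intron of the longest non-coding transcript. The motif also occurs in 7.01% of 32817 RefSeq promoter windows of the same 250 bases. The form with 4 bases between TTC and GAA, which STAT6 prefers, was in none of the 7 and is in 5.85% of all windows. The stretches shown are chr11:117969452-117969616 on the minus strand (Socs3), chr11:100939541-100939790 on the minus strand (Stat3), chr7:125552021-125552119 on the plus strand (Il4ra) and chr13:112463820-112464069 on the plus strand (Il6st).
Socs3: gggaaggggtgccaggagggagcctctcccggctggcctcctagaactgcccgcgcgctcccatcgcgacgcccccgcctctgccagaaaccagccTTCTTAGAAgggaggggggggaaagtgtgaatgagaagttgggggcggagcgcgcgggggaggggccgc
Stat3: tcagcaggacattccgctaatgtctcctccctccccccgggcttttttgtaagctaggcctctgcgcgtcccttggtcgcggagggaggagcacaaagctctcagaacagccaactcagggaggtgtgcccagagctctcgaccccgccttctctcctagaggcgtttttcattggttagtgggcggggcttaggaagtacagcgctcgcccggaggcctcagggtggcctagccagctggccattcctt
Il4ra: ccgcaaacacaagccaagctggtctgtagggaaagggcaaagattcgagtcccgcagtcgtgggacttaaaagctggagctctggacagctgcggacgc
Il6st: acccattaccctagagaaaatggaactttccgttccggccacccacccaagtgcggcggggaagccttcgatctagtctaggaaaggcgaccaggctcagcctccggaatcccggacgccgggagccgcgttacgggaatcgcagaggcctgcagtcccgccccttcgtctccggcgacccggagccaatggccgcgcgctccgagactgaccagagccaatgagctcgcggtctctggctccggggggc
A match to these letters is a description of the sequence and does not show that a factor binds there.

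Library totals ran from 28676930 to 40458326 counts. The cells had been sorted as live CD45mid, CD11b+ and CD11a- cells, and 7 microglial markers (P2ry12, Tmem119, Cx3cr1, Siglech, Sall1, Gpr34, Fcrls) were found in every group. Their summed level, in CPM (reads per 1e+06 reads of the library, here without the TMM scaling used for single genes), lay between 17590.0 and 23353 for GW-CBD-LPS libraries against 22897 and 24523 for GW-CBD-PBS, which overlapped. It lay between 10924 and 15466 for GW-Veh-LPS against 21226 and 24831 for GW-Veh-PBS, and between 9203 and 14254 for Ctrl-Veh-LPS against 20037 and 26865 for Ctrl-Veh-PBS. Under LPS the marker sum was thus lower than under PBS in vehicle-treated mice, and every GW-CBD-LPS library lay above every GW-Veh-LPS library. Markers of neutrophils, cells that the gate should remove, stood apart in 3 libraries. Their 12 genes summed to 1669 CPM in GW-Veh-PBS replicate 1, 2695 CPM in Ctrl-Veh-LPS replicate 1 and 26809 CPM in Ctrl-Veh-PBS replicate 3, and to 1.502 to 334.5 CPM in all 19 others. Border macrophage markers summed to 139.6 to 297 CPM, monocyte markers to 5.63 to 268 CPM and T and NK cell markers to 0 to 28.0 CPM over all libraries. Endothelial markers summed to 24.1 to 34.3 CPM in GW-CBD-LPS against 32.8 to 44.0 CPM in GW-CBD-PBS. They were lower without overlap with LPS in vehicle-treated mice, at 17.5 to 28.0 CPM in GW-Veh-LPS against 29.6 to 49.9 CPM in GW-Veh-PBS, and at 14.1 to 24.5 CPM in Ctrl-Veh-LPS against 33.2 to 45.3 CPM in Ctrl-Veh-PBS. Erythroid markers (65.8 to 137 against 259 to 1568 CPM) and B cell markers (32.8 to 36.8 against 47.8 to 79.0 CPM) were also lower without overlap in GW-Veh-LPS against GW-Veh-PBS. They overlapped between LPS and PBS in the other mice. Border macrophage markers were higher without overlap in GW-Veh-LPS (184 to 297 CPM) than in GW-Veh-PBS (139.6 to 169 CPM). Astrocyte markers were higher without overlap in GW-CBD-LPS (14.6 to 21.6 CPM) than in GW-CBD-PBS (7.82 to 10.4 CPM) or GW-Veh-LPS (9.19 to 14.1 CPM). B cell markers in GW-CBD-LPS (44.1 to 70.2 CPM) lay above those in GW-Veh-LPS. Neutrophil markers in GW-CBD-LPS (1.502 to 12.3 CPM) lay below those in GW-CBD-PBS (14.7 to 155 CPM). The part of these other cells in the results was not tested, except by leaving libraries out and by a fit with the neutrophil sum as a covariate. In RNA from a sorted population, fewer cells of a type and less RNA per cell cannot be told apart.

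Compared between genes on a scale that allows for length (mean CPM per kb of exons), Socs3 stood highest in the LPS groups and Cish lowest. Socs3 had 205 ± 81.0 CPM per kb in GW-CBD-LPS, 461 ± 127 in GW-Veh-LPS and 513 ± 93.5 in Ctrl-Veh-LPS (SD), and 117 ± 35.9, 114 ± 45.5 and 77.6 ± 14.8 CPM per kb in GW-CBD-PBS, GW-Veh-PBS and Ctrl-Veh-PBS. In the PBS groups the highest of the 10 was Il10ra, the ligand-binding chain of the IL-10 receptor, at 203 ± 11.2 CPM per kb in GW-CBD-PBS, 163 ± 42.8 in GW-Veh-PBS and 174 ± 24.6 in Ctrl-Veh-PBS. Il4ra, Il10rb, Stat3, Il6ra and Il6st lay between 5.58 and 143 CPM per kb over the 6 groups. Socs1 was near 1 to 2 CPM per kb, at 0.891 ± 0.336 in GW-Veh-LPS and 2.05 ± 0.742 in GW-Veh-PBS at its extremes, and Socs2 and Cish were below 0.6 CPM per kb everywhere.

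**Figure D1:**
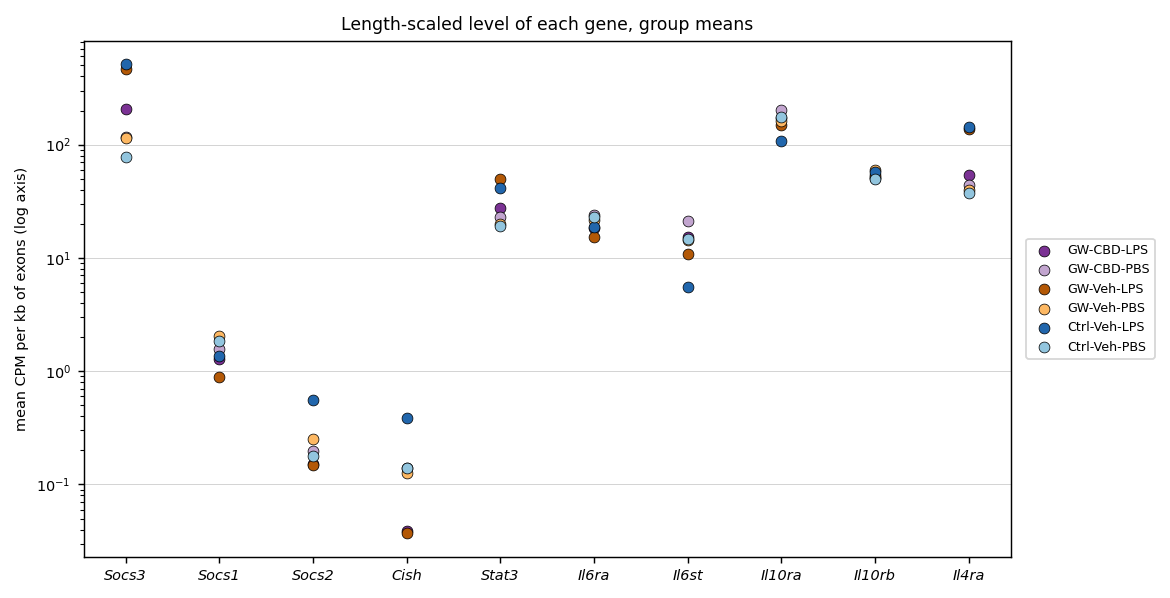
Mean level of each of the 10 genes in the 6 groups, in CPM per kb of exons on a log axis, 1 point per group (n = 3 or 4 libraries). Socs3 lay at 205 to 513 CPM per kb in the LPS groups and Cish at or below 0.388 CPM per kb in every group.

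With LPS, some of the 10 genes were called higher by edgeR in GW-Veh and Ctrl-Veh mice, and others were called lower in Ctrl-Veh mice. In GW-CBD mice 0 of 10 passed the edgeR test (adjusted p under 0.05 over all genes), where 0.417% of all genes tested did, 0.393% as higher and 0.0242% as lower. At an unadjusted p under 0.05 edgeR counted 1 higher and 1 lower member there, DESeq2 called 0 and limma voom 2 (Socs3 higher, Il6ra lower). Over all 16554 genes these counts, in either direction, were 1821, 344 and 3779. In GW-Veh mice 3 of 10 passed, Socs3, Il4ra and Stat3, all higher, where 9.53% of all genes passed, 4.45% as higher and 5.07% as lower. In Ctrl-Veh mice 5 of 10 passed, where 20.4% of all genes did. Socs3, Il4ra and Stat3 rose there too, against 10.8% of all genes called higher, and Il6st and Il10ra fell, against 9.62% called lower. The median log2 fold change of the 10 was -0.27 in GW-CBD mice, -0.27 in GW-Veh mice and 0.67 in Ctrl-Veh mice, beside 0.00, -0.04 and -0.02 over all genes.

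**Figure D2:**
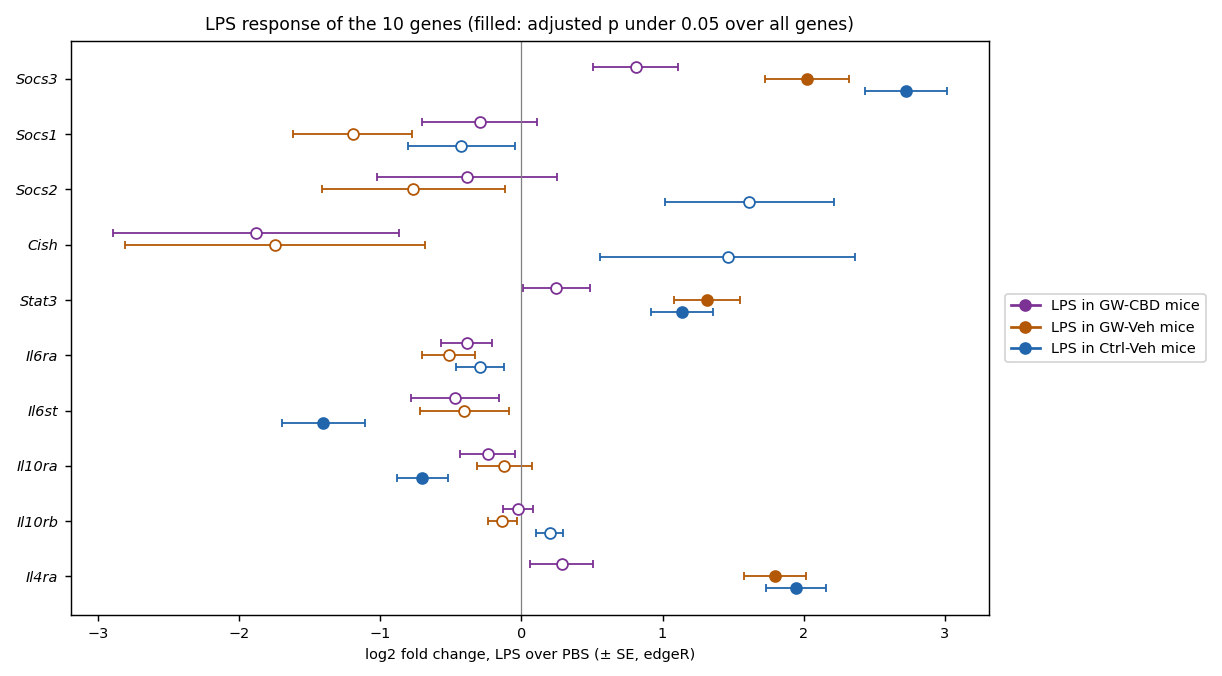
Log2 fold change of LPS over PBS for each gene (horizontal axis, edgeR, ± SE) in GW-CBD, GW-Veh and Ctrl-Veh mice, with filled points for adjusted p under 0.05 over all genes. Socs3, Il4ra and Stat3 have filled points at 1.14 to 2.72 in the vehicle-treated mice and open points at 0.25 to 0.81 in GW-CBD mice.

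Socs3 (ENSMUSG00000053113, chromosome 11, 117966079 to 117970047, minus strand, build GRCm38) encodes the feedback inhibitor of gp130 and JAK signalling. It had 429.9, 920.1, 417 and 600.1 CPM in the 4 GW-CBD-LPS libraries, against 334, 443 and 236 CPM in GW-CBD-PBS. It had 1087, 1755 and 1158 CPM in GW-Veh-LPS, against 255, 521, 302 and 235 CPM in GW-Veh-PBS. It had 1669, 1759.8, 1237 and 1266 CPM in Ctrl-Veh-LPS, against 185, 192, 273 and 246 CPM in Ctrl-Veh-PBS. Every LPS library of vehicle-treated mice lay above every PBS library of its own exposure, while 2 of the 4 GW-CBD-LPS libraries lay below the highest GW-CBD-PBS library. The log2 fold change in GW-CBD mice was 0.81 ± 0.30 (SE, edgeR adjusted p = 0.305). It was 2.02 ± 0.30 (adjusted p = 0.000238) in GW-Veh mice and 2.72 ± 0.29 (adjusted p = 2.47e-06) in Ctrl-Veh mice.

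Stat3 (ENSMUSG00000004040) encodes the transcription factor itself. It had 243, 379, 219.6 and 208 CPM in GW-CBD-LPS, against 249, 205 and 209 CPM in GW-CBD-PBS. It had 380.3, 621 and 409 CPM in GW-Veh-LPS, against 131, 284, 174 and 165 CPM in GW-Veh-PBS. It had 386, 432, 401 and 374 CPM in Ctrl-Veh-LPS, against 194, 137, 193 and 198 CPM in Ctrl-Veh-PBS. The LPS and PBS libraries did not overlap in Ctrl-Veh or GW-Veh mice and overlapped in GW-CBD mice, where replicate 2 was the highest, as it was for Socs3. The log2 fold change of Stat3 was 0.25 ± 0.24 (edgeR adjusted p = 0.766) in GW-CBD mice, and it rose by 1.32 ± 0.23 (adjusted p = 0.0014) in GW-Veh mice and by 1.14 ± 0.22 (adjusted p = 0.000943) in Ctrl-Veh mice. An exon of Stat5a on the other strand overlaps Stat3 (chromosome 11, 100885098 to 100939540, minus strand). The strand setting of the counting is not given in the sources used here, and Stat5a itself did not pass in any of these 3 comparisons (0.30 ± 0.18 in Ctrl-Veh mice).

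Il4ra (ENSMUSG00000030748, chromosome 7, 125552120 to 125579474, plus strand) encodes the shared chain of the IL-4 and IL-13 receptors. It had 335, 442, 256 and 261 CPM in GW-CBD-LPS, against 273, 250.1 and 274 CPM in GW-CBD-PBS. It had 661, 926 and 890.0 CPM in GW-Veh-LPS, against 178, 338, 238 and 196 CPM in GW-Veh-PBS. It had 1036, 883, 875 and 646 CPM in Ctrl-Veh-LPS, against 256, 165, 235 and 237 CPM in Ctrl-Veh-PBS. As with Socs3, the libraries of LPS and PBS were apart in vehicle-treated mice and overlapped in GW-CBD mice. The log2 fold change was 0.28 ± 0.22 (edgeR adjusted p = 0.699) in GW-CBD mice, 1.80 ± 0.22 (adjusted p = 8.18e-05) in GW-Veh mice and 1.95 ± 0.21 (adjusted p = 3.22e-06) in Ctrl-Veh mice. An antisense gene, Gm44876, overlaps an exon of Il4ra.

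**Figure D3:**
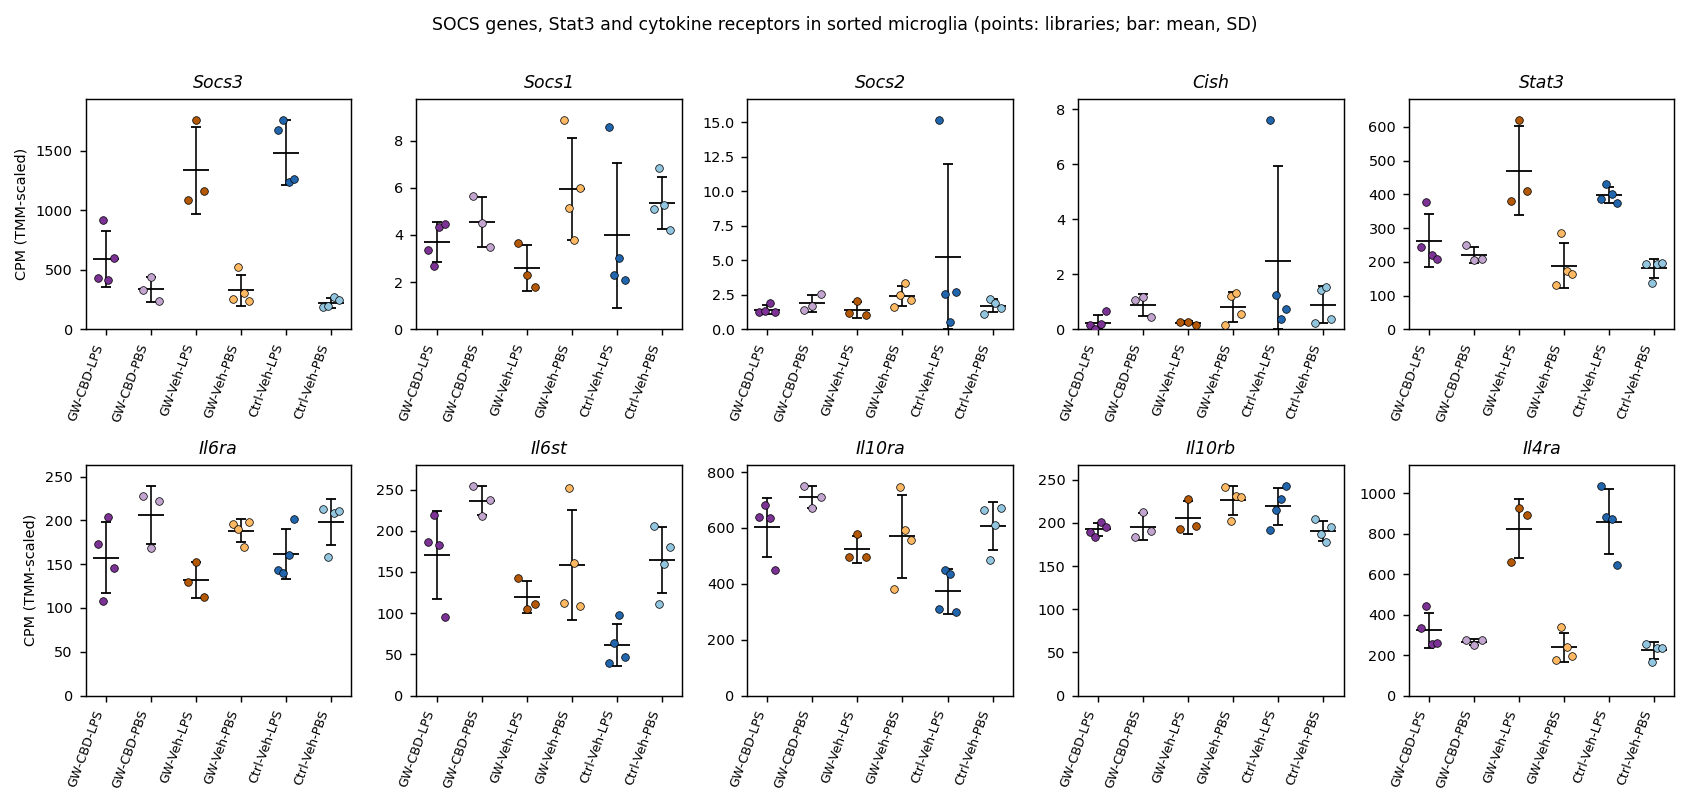
CPM of each gene in each library (points) with the mean and SD of the group (bars), 1 panel per gene with its own linear axis from 0. Socs3, Stat3 and Il4ra have their highest means in GW-Veh-LPS and Ctrl-Veh-LPS, Il6st has its lowest in Ctrl-Veh-LPS, and 1 Ctrl-Veh-LPS library stands far above the others of its group for Socs1, Socs2 and Cish.

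Il6st (ENSMUSG00000021756, chromosome 13, 112464070 to 112510086, plus strand) encodes gp130, the signalling chain that all receptors of the IL-6 family share. It had 186, 219, 182 and 94.8 CPM in GW-CBD-LPS, against 254, 218 and 237 CPM in GW-CBD-PBS. It had 142, 105 and 111 CPM in GW-Veh-LPS, against 113, 252, 160.4 and 109 CPM in GW-Veh-PBS. It had 40.03, 63.6, 97.2 and 46.9 CPM in Ctrl-Veh-LPS, against 205, 111, 159 and 180.4 CPM in Ctrl-Veh-PBS. LPS and PBS libraries were apart in Ctrl-Veh mice and overlapped in GW-Veh and GW-CBD mice. The log2 fold change of Il6st was -0.47 ± 0.31 (edgeR adjusted p = 0.625) in GW-CBD mice and -0.41 ± 0.32 (adjusted p = 0.47) in GW-Veh mice, and it fell by 1.40 ± 0.30 (adjusted p = 0.002) in Ctrl-Veh mice. The difference between the GW-Veh and Ctrl-Veh responses was 1.00 ± 0.43 and did not pass (adjusted p = 0.364), so a smaller fall in GW mice is not shown.

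Il6ra (ENSMUSG00000027947, chromosome 3, 89864059 to 89913196, minus strand) encodes the chain that binds IL-6, and no comparison called it in edgeR. Its libraries lay between 108 and 204 CPM in GW-CBD-LPS, 168 and 228 in GW-CBD-PBS, 112 and 153 in GW-Veh-LPS, 169.5 and 198 in GW-Veh-PBS, 139 and 202 in Ctrl-Veh-LPS, and 158 and 213 CPM in Ctrl-Veh-PBS. Its log2 fold changes with LPS were -0.39 ± 0.18, -0.52 ± 0.19 and -0.29 ± 0.17 in GW-CBD, GW-Veh and Ctrl-Veh mice (edgeR adjusted p = 0.446, 0.0841 and 0.236). In GW-Veh mice the LPS and PBS libraries did not overlap, and DESeq2 (adjusted p = 0.0431) and limma voom (0.00424) called the difference there. An antisense gene, Gm42809, overlaps an exon of Il6ra.

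The receptor of IL-10, a cytokine that restrains macrophages, is built from the ligand-binding chain Il10ra (ENSMUSG00000032089, chromosome 9, 45253837 to 45269149, minus strand) and the accessory chain Il10rb (ENSMUSG00000022969, chromosome 16, 91406164 to 91425834, plus strand). Il10ra had 641, 683, 636 and 448 CPM in GW-CBD-LPS, against 751, 672 and 710.0 CPM in GW-CBD-PBS. It had 495, 579 and 495 CPM in GW-Veh-LPS, against 382, 747, 593 and 556 CPM in GW-Veh-PBS. It had 310.0, 451, 436 and 298 CPM in Ctrl-Veh-LPS, against 663, 485, 612 and 673 CPM in Ctrl-Veh-PBS. Its log2 fold change was -0.24 ± 0.19 (edgeR adjusted p = 0.709) in GW-CBD mice and -0.12 ± 0.19 (adjusted p = 0.754) in GW-Veh mice, with overlapping libraries. Il10ra fell by 0.70 ± 0.18 (adjusted p = 0.0087) on the log2 scale in Ctrl-Veh mice, where the libraries did not overlap, and the responses of GW-Veh and Ctrl-Veh mice differed by 0.58 ± 0.26 (adjusted p = 0.379).

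Il10rb lay between 178 and 242 CPM over all 22 libraries, with its highest group mean in GW-Veh-PBS and its lowest in Ctrl-Veh-PBS. Its log2 fold changes with LPS were -0.02 ± 0.10, -0.13 ± 0.10 and 0.20 ± 0.10 in GW-CBD, GW-Veh and Ctrl-Veh mice (edgeR adjusted p = 0.962, 0.461 and 0.149). The microglial marker sum was lower in the same LPS groups, and its part in the lower Il6st and Il10ra was not tested. Gm21970, on the same strand, overlaps an exon of Il10rb.

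The other 3 SOCS genes, Socs1 (ENSMUSG00000038037, chromosome 16, 10782240 to 10785536, minus strand), Socs2 (ENSMUSG00000020027, chromosome 10, 95385362 to 95417180, minus strand) and Cish (ENSMUSG00000032578, chromosome 9, 107296026 to 107302784, plus strand), had few reads. SOCS1 blocks JAK kinases downstream of interferons, CIS (the product of Cish) acts on STAT5 pathways, and SOCS2 restrains growth hormone signalling. Socs1 had 62 to 296 reads a library, Socs2 21 to 433 and Cish 0 to 217. Socs1 was 2.68 to 4.47 CPM in GW-CBD-LPS and 3.50 to 5.64 CPM in GW-CBD-PBS, 1.79 to 3.68 CPM in GW-Veh-LPS and 3.78 to 8.88 CPM in GW-Veh-PBS, and 2.09 to 8.56 CPM in Ctrl-Veh-LPS and 4.19 to 6.86 CPM in Ctrl-Veh-PBS. In GW-Veh mice the LPS and PBS libraries of Socs1 were apart, and its log2 fold change of -1.20 ± 0.42 missed the threshold (edgeR adjusted p = 0.0785), while DESeq2 (adjusted p = 0.0289) and limma voom (0.0178) called it.

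In Ctrl-Veh mice the values of these 3 genes with LPS rested on 1 library. Ctrl-Veh-LPS replicate 1, which also had raised neutrophil markers, held 8.56 CPM of Socs1, 15.2 CPM of Socs2 and 7.61 CPM of Cish. The other 3 Ctrl-Veh-LPS libraries held 2.09 to 3.01 CPM of Socs1, 0.555 to 2.73 CPM of Socs2 and 0.370 to 1.25 CPM of Cish. With all libraries the log2 fold changes with LPS in Ctrl-Veh mice were -0.43 ± 0.38 for Socs1 (edgeR adjusted p = 0.46), 1.62 ± 0.60 for Socs2 (0.0608) and 1.46 ± 0.90 for Cish (0.272). Without that library they were -1.11 ± 0.31 for Socs1 (adjusted p = 0.0208), 0.19 for Socs2 (0.819) and -0.20 ± 0.86 for Cish (0.912). Socs1 thus passed as lower, Socs2 came near 0 and Cish changed sign.

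In GW mice Socs2 and Cish did not pass with LPS or with CBD (edgeR). Socs2 had 1.23 to 1.89 CPM in GW-CBD-LPS, 1.41 to 2.55 CPM in GW-CBD-PBS, 1.01 to 2.04 CPM in GW-Veh-LPS and 1.65 to 3.36 CPM in GW-Veh-PBS. Cish had at most 18 reads in a GW-CBD-LPS library against 15 to 47 in GW-CBD-PBS, and 6 to 11 in GW-Veh-LPS against 5 to 47 in GW-Veh-PBS. The library with 0 reads of Cish, GW-CBD-LPS replicate 2, allows a level of up to 0.0780 CPM (3 counts, counting error only). Antisense genes (Gm17040 and Gm17041) overlap exons of Cish.

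The effect of CBD was compared between GW-CBD-LPS and GW-Veh-LPS. Socs3 and Il4ra were lower with CBD, and these 2 of 10 were called where 2.31% of all genes were, 1.06% as higher and 1.24% as lower. Socs3 averaged 592 ± 234 CPM in GW-CBD-LPS (SD, n = 4) and 1333.5 ± 367 CPM in GW-Veh-LPS (n = 3), a log2 difference of -1.17 ± 0.29 (edgeR adjusted p = 0.0365). Il4ra averaged 324 ± 86.7 CPM in GW-CBD-LPS and 826 ± 143 CPM in GW-Veh-LPS, a log2 difference of -1.35 ± 0.22 (adjusted p = 0.00257). The libraries of the groups did not overlap for Socs3, Il4ra or Stat3. How many of all genes also had no overlap between these groups is not given here. The Stat3 difference of -0.84 ± 0.23 did not pass in edgeR (adjusted p = 0.0612). DESeq2 (adjusted p = 0.0165) and limma voom (0.000304) called Stat3 as lower with CBD. The other receptor chains had no edgeR call, with log2 differences of 0.51 ± 0.32 for Il6st, 0.26 ± 0.18 for Il6ra, 0.20 ± 0.20 for Il10ra and -0.10 ± 0.10 for Il10rb. Limma voom called 3 of these as higher with CBD, Il6st (adjusted p = 0.018), Il6ra (0.00614) and Il10ra (0.0302). It called 3512 of all 16554 genes in this comparison, in either direction. Over the 10 genes the median was 0.02, beside 0.01 over all genes.

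This comparison shares the GW-Veh-LPS libraries with the LPS response of GW-Veh mice. The microglial marker sum was higher in GW-CBD-LPS than in GW-Veh-LPS, and its part in these differences was not tested. The calls differ in how far they rest on single libraries and on the fit. Il4ra passed in each of the 7 fits that left out 1 library of these groups (adjusted p = 0.000872 to 0.0276), but in a fit of these groups alone its adjusted p was 0.0562 with a log2 difference of -1.35 ± 0.21. Socs3 lost its call without GW-Veh-LPS replicate 3 (-0.92 ± 0.31, adjusted p = 0.274) or 4 (0.0713), and without GW-CBD-LPS replicate 1 (0.13), 3 (0.118) or 4 (0.0746). It lost it also in the fit of these groups alone (0.091) and with the neutrophil marker sum as a covariate (-0.91 ± 0.27, adjusted p = 0.107). Neutrophil markers summed to 1.502 to 12.3 CPM in GW-CBD-LPS and 14.8 to 231 CPM in GW-Veh-LPS. Stat3 passed without GW-CBD-LPS replicate 2 (-1.04 ± 0.23, adjusted p = 0.0132), the library with the highest Stat3, Socs3 and Il4ra of its group. In edgeR Stat3 also passed without GW-Veh-LPS replicate 2 (adjusted p = 0.0494). Without the 3 libraries with raised neutrophil markers it passed too (-0.83 ± 0.22, adjusted p = 0.0396).

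**Figure D4:**
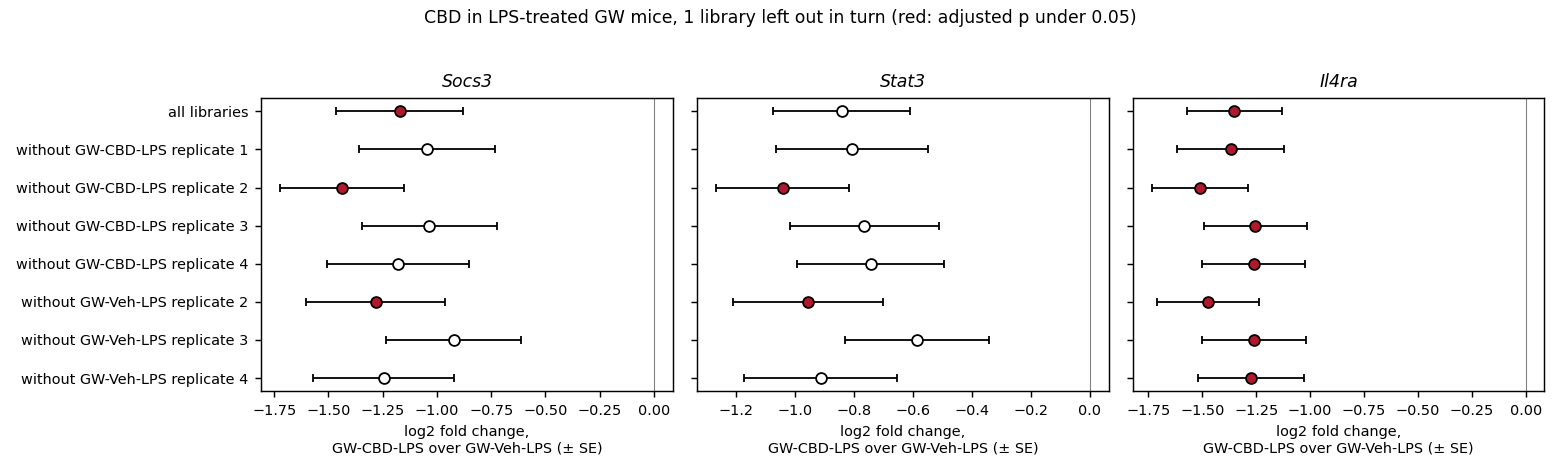
Log2 difference of GW-CBD-LPS over GW-Veh-LPS (± SE, edgeR) for Socs3, Stat3 and Il4ra with all libraries and with each library left out in turn, in red where adjusted p is under 0.05. Il4ra is red in every row, Socs3 in 3 of 8 and Stat3 in 2 of 8.

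Whether the LPS response itself differed between treatments was tested as a difference of differences. The response of GW-CBD mice was lower than that of Ctrl-Veh mice for Socs3 by a log2 value of -1.92 ± 0.40 (edgeR adjusted p = 0.0173) and for Il4ra by -1.66 ± 0.30 (adjusted p = 0.00829). These were 2 of 10 genes, both lower, where 1.98% of all genes were called, 0.948% as higher and 1.03% as lower. Without GW-CBD-PBS replicate 3 the Socs3 value was -1.67 ± 0.42 and missed the threshold (adjusted p = 0.0634). Stat3 (-0.89 ± 0.32, adjusted p = 0.157) and Il6st (0.93 ± 0.43, adjusted p = 0.3) did not pass in edgeR. Limma voom called both (adjusted p = 0.00748 and 0.0111), among 2194 of all 16554 genes. This contrast joins exposure and CBD, which cannot be told apart in it.

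Within GW mice the interaction of CBD and LPS had 0 of 10 members, where 0.0181% of all genes were called, 0.0121% as higher and 0.00604% as lower. At an unadjusted p under 0.05 edgeR counted 3 lower members, DESeq2 called 1 and limma voom 3. Over all 16554 genes these counts, in either direction, were 2540, 381 and 2287. Il4ra came nearest with -1.51 ± 0.31 (adjusted p = 0.0617), ahead of Stat3 with -1.07 ± 0.33 (0.175) and Socs3 with -1.21 ± 0.41 (0.204). For Il4ra the test passed without GW-CBD-LPS replicate 2 (adjusted p = 0.0147), GW-Veh-LPS replicate 2 (0.0222) or GW-Veh-PBS replicate 2 (0.0285). For Stat3 it passed without GW-CBD-LPS replicate 2 (0.0434).

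Exposure without CBD left the 10 genes without a call. Of GW-Veh-PBS against Ctrl-Veh-PBS, 0 of 10 passed, as 0.0% of all genes did, with 1 at an unadjusted p under 0.05 (edgeR) and 0 by DESeq2 or limma voom. At that unadjusted p edgeR counted 621 of all 16554 genes. Il10rb averaged 226 ± 16.8 CPM in GW-Veh-PBS and 191 ± 11.4 CPM in Ctrl-Veh-PBS, with overlapping libraries. Socs3 averaged 328 ± 132 CPM in GW-Veh-PBS and 224 ± 42.7 CPM in Ctrl-Veh-PBS, a log2 difference of 0.55 ± 0.27 (edgeR adjusted p = 1.0). Of GW-Veh-LPS against Ctrl-Veh-LPS, 0 of 10 passed, again with 0.0% of all genes, with 4 at an unadjusted p under 0.05, 1 by DESeq2 (Cish, lower) and 1 by limma voom (Il6st, higher). Over all 16554 genes edgeR counted 2267 at that unadjusted p, DESeq2 called 147 and limma voom 324. Here Il6st averaged 119.7 ± 19.8 CPM in GW-Veh-LPS and 61.9 ± 25.5 CPM in Ctrl-Veh-LPS without overlap, a log2 difference of 0.95 ± 0.31 (adjusted p = 0.31), and Il10ra differed by 0.49 ± 0.19 (0.328), also without overlap. Cish differed by -3.36 ± 1.12 (0.31), a value that the Ctrl-Veh-LPS library named above carries in part. The interaction of exposure and LPS had 0 of 10, with 0.0% of all genes, 5 members at an unadjusted p under 0.05, and 0 by DESeq2 or limma voom. Of all 16554 genes 2099 had such an unadjusted p there.

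CBD without LPS likewise gave 0 of 10 calls (GW-CBD-PBS against GW-Veh-PBS, 0.0% of all genes), with 0 at an unadjusted p under 0.05 in edgeR, 0 by DESeq2 and 0 by limma voom. Of all 16554 genes 1569 had such an unadjusted p, and limma voom called 217. Il6st averaged 237 ± 17.9 CPM in GW-CBD-PBS and 159 ± 66.6 CPM in GW-Veh-PBS, a log2 difference of 0.58 ± 0.31 (edgeR adjusted p = 0.553). Il10ra averaged 711 ± 39.1 CPM in GW-CBD-PBS and 569 ± 149.8 CPM in GW-Veh-PBS, a difference of 0.32 ± 0.19 (0.575). For both genes GW-CBD-PBS had the highest mean of the 6 groups, and its libraries overlapped those of the group next in order.

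Ordered by mean level, Socs3 and Il4ra ran in the same order, Ctrl-Veh-LPS, GW-Veh-LPS, GW-CBD-LPS, GW-CBD-PBS, GW-Veh-PBS and Ctrl-Veh-PBS. In that order the only neighbours whose libraries did not overlap were GW-Veh-LPS and GW-CBD-LPS. For Il6st and Il10ra the only such step lay between GW-Veh-LPS and Ctrl-Veh-LPS, the lowest group of both. For Stat3, Socs1, Socs2, Cish, Il6ra and Il10rb every pair of neighbours in the order overlapped. The groups were first ordered by these same means, so the steps are a description. How common such steps are over all genes is not given here.

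The rest of the pathway was described from lists of other members. These lists were chosen with earlier results of these data known. Their counts beside the shares of all genes are therefore a description and no test of the lists. Counts over all 16554 genes are given for edgeR at an unadjusted p under 0.05, DESeq2 and limma voom, in that order. With LPS they were 1821, 344 and 3779 in GW-CBD mice, and 4019, 2326 and 3809 in GW-Veh mice. In Ctrl-Veh mice they were 5540, 4014 and 4494. With CBD under LPS they were 2383, 900 and 3512. Of 11 genes that STAT3 is known to switch on or that are often read as its targets, 0 passed with LPS in GW-CBD mice, with 1 at an unadjusted p under 0.05 (edgeR), 1 by DESeq2 and 1 by limma voom. In GW-Veh mice 5 of the 11 rose with LPS, where 4.45% of all genes did, and in Ctrl-Veh mice 7 rose, where 10.8% did. With all libraries 0 of the 11 fell in either by edgeR, DESeq2 or limma voom, or at an unadjusted p under 0.05. Without the 3 libraries with raised neutrophil markers edgeR called 7 higher and 1 lower in GW-Veh mice, and 8 higher in Ctrl-Veh mice. Of the 16263 genes tested in that fit, 1120 and 2316 were called in either direction. With all libraries the median log2 fold change of the 11 was -0.05 in GW-CBD mice, 1.00 in GW-Veh mice and 1.43 in Ctrl-Veh mice, beside 0.00, -0.04 and -0.02 over all genes. In GW-CBD-LPS compared with GW-Veh-LPS, 5 of the 11 fell, where 1.24% of all genes did, and 0 rose by any of these counts, with a median of -1.002 beside 0.01 over all genes. Without GW-Veh-LPS replicate 3 the number called with LPS in GW-Veh mice was 3. The number that fell with CBD was 1 without GW-Veh-LPS replicate 3, GW-CBD-LPS replicate 1 or GW-CBD-LPS replicate 3, 2 without GW-CBD-LPS replicate 4 and 3 without GW-Veh-LPS replicate 4. It was 7 without the 3 libraries with raised neutrophil markers, where 672 of 16263 genes were called in either direction.

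Bcl3, an atypical IκB protein in the nucleus, had the smallest p of these targets in each comparison with calls. It averaged 20.03 ± 5.81 CPM in GW-CBD-LPS and 10.5 ± 1.09 CPM in GW-CBD-PBS, 74.9 ± 18.6 CPM in GW-Veh-LPS and 16.8 ± 5.29 CPM in GW-Veh-PBS, and 105 ± 28.4 CPM in Ctrl-Veh-LPS and 13.8 ± 4.05 CPM in Ctrl-Veh-PBS. It rose with LPS in GW-Veh mice (log2 fold change 2.16 ± 0.27) and in Ctrl-Veh mice (2.93 ± 0.27), and fell with CBD under LPS (-1.90 ± 0.27, edgeR adjusted p = 0.00141), and each fit without 1 library kept these 3 calls. Cebpb, a transcription factor of the acute phase, rose in GW-Veh mice (1.12 ± 0.28), lost without GW-Veh-LPS replicate 3 or GW-Veh-PBS replicate 3, and in Ctrl-Veh mice (2.30 ± 0.28), as did its relative Cebpd in Ctrl-Veh mice (1.28 ± 0.22). Sbno2, a repressor downstream of IL-10 in macrophages, and the survival gene Mcl1 rose in GW-Veh mice (1.96 ± 0.34 and 1.00 ± 0.18). Both also rose in Ctrl-Veh mice (1.90 ± 0.32 and 0.70 ± 0.17). With CBD under LPS Mcl1 fell by 0.81 ± 0.18 and Sbno2 fell by 1.44 ± 0.33, and both calls were lost without GW-Veh-LPS replicate 3, GW-CBD-LPS replicate 1 or GW-CBD-LPS replicate 3, that of Sbno2 also without GW-Veh-LPS replicate 4 or GW-CBD-LPS replicate 4. The transcription factors Nfil3 (-1.75 ± 0.45) and Bcl6 (-1.002 ± 0.24) made up the 5, and lost their calls in 6 and in 5 of the 7 fits without 1 library.

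Among 14 other receptor chains, 0 passed with LPS in GW-CBD mice (0 at an unadjusted p under 0.05 in edgeR, 0 by DESeq2, 3 by limma voom), 2 rose and 1 fell in GW-Veh mice, where 9.53% of all genes were called, and 2 rose and 1 fell in Ctrl-Veh mice, where 20.4% were, a share close to that of the list. With CBD under LPS 2 fell by edgeR, where 1.24% of all genes did, and 2 by DESeq2. Limma voom called 6 higher and 2 lower there, and at an unadjusted p under 0.05 edgeR counted 3 higher and 3 lower. Csf2rb, the shared chain of the GM-CSF, IL-3 and IL-5 receptors, rose by 1.06 ± 0.20 in GW-Veh mice and 1.40 ± 0.19 in Ctrl-Veh mice. Lifr, which pairs with gp130 to bind LIF, rose by 1.505 ± 0.25 in GW-Veh mice and 1.30 ± 0.23 in Ctrl-Veh mice. With CBD under LPS Lifr fell by 1.18 ± 0.24 (edgeR adjusted p = 0.0114) and Csf2rb fell by 0.86 ± 0.20 (0.0244). Both calls were lost without GW-Veh-LPS replicate 3, GW-CBD-LPS replicate 1 or GW-CBD-LPS replicate 3, that of Lifr also without GW-Veh-LPS replicate 4 and that of Csf2rb without GW-CBD-LPS replicate 4. The chains that fell were Il2rg, the common gamma chain, in GW-Veh mice (-1.48 ± 0.35), lost without GW-Veh-LPS replicate 3 (adjusted p = 0.0606), and Il21r in Ctrl-Veh mice (-0.44 ± 0.14), lost without replicate 2 or 4 of Ctrl-Veh-LPS or replicate 1 or 4 of Ctrl-Veh-PBS. Osmr, the chain that joins gp130 to bind oncostatin M, did not pass with LPS (-1.13 ± 1.74 in GW-Veh mice and 0.76 ± 1.56 in Ctrl-Veh mice). It had at most 25 reads in a library and 141 over all libraries, which limits these values.

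Of 10 kinases and other STATs, 0 passed with LPS in GW-CBD mice, with 2 at an unadjusted p under 0.05 in edgeR, 0 by DESeq2 and 3 by limma voom. In GW-Veh mice Jak3 (1.09 ± 0.23), Jak1 (0.76 ± 0.21) and Stat2 (0.95 ± 0.28) rose, where 4.45% of all genes did, and the calls of Jak1 and Stat2 were lost in 5 and in 6 of the 7 fits without 1 library. Without the 3 libraries with raised neutrophil markers edgeR called 1 of the 10 higher there, and 1120 of 16263 genes in either direction. In Ctrl-Veh mice Jak3 (1.29 ± 0.22) and Stat2 (1.24 ± 0.27) rose, where 10.8% of all genes did. With CBD under LPS 0 passed, with 1 at an unadjusted p under 0.05 in edgeR, 0 by DESeq2 and 2 by limma voom. Stat6, the main partner of IL-4Rα, did not pass with LPS (0.57 ± 0.21 in GW-Veh mice, edgeR adjusted p = 0.0931, and -0.01 ± 0.20 in Ctrl-Veh mice).

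Of 9 other inhibitors of the pathway edgeR called 1, Ptpn1, a phosphatase that acts on JAK kinases. Other tools called more: 1 higher and 1 lower with LPS in Ctrl-Veh mice by DESeq2 and by limma voom, and 1 higher and 2 lower with CBD under LPS by limma voom. Of all genes, edgeR called 4.45% higher with LPS in GW-Veh mice. In Ctrl-Veh mice 10.8% were higher, a share close to 1 of 9. With CBD under LPS 1.24% were lower, and 1.03% in the response of GW-CBD against Ctrl-Veh mice. Ptpn1 averaged 462 ± 48.9 CPM in GW-CBD-LPS and 352 ± 14.3 CPM in GW-CBD-PBS, 703 ± 78.8 CPM in GW-Veh-LPS and 374 ± 40.4 CPM in GW-Veh-PBS, and 839 ± 83.2 CPM in Ctrl-Veh-LPS and 325 ± 18.4 CPM in Ctrl-Veh-PBS. It rose with LPS by 0.91 ± 0.11 in GW-Veh mice and 1.37 ± 0.11 in Ctrl-Veh mice, and fell with CBD under LPS (-0.61 ± 0.11, edgeR adjusted p = 0.00587). The LPS response of GW-CBD mice was lower than that of Ctrl-Veh mice by a log2 value of -0.98 ± 0.15 (adjusted p = 0.00419). Each of these 4 calls held in every fit without 1 library. In GW-CBD mice 0 of the 9 passed with LPS, with 1 at an unadjusted p under 0.05 in edgeR, 1 by DESeq2 and 1 by limma voom. The other 4 SOCS genes (Socs4, Socs5, Socs6 and Socs7) had 0 calls by edgeR or DESeq2 in every comparison. Their log2 fold changes with LPS in Ctrl-Veh mice lay between -0.16 and 0.54, where 1 was higher at an unadjusted p under 0.05 (edgeR) and 1 by limma voom. Limma voom also called 2 of the 4 lower with LPS in GW-CBD mice and 1 lower in the interaction of CBD and LPS.

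Of 12 ligand genes 8 could be tested. Lif and Il11 had too few reads (at most 23 and 8 in a library), and Il13 and Il22 were at 0 in all libraries. With LPS 2 of the 8 fell in GW-Veh mice, where 5.07% of all genes did (edgeR). In Ctrl-Veh mice 2 fell, where 9.62% did. Clcf1, a ligand of the IL-6 family, fell with LPS in GW-Veh mice (-0.80 ± 0.14) and in Ctrl-Veh mice (-0.97 ± 0.13). Ebi3, a subunit of IL-27, also fell in GW-Veh mice (-2.14 ± 0.34) and in Ctrl-Veh mice (-0.95 ± 0.29), where the call was lost without replicate 2, 3 or 4 of Ctrl-Veh-LPS or replicate 2 of Ctrl-Veh-PBS. In GW-CBD mice 0 of the 8 passed with LPS, with 1 at an unadjusted p under 0.05 in edgeR, 0 by DESeq2 and 4 by limma voom. With CBD under LPS Clcf1 rose by 0.57 ± 0.14 (edgeR adjusted p = 0.0358), a call lost in 5 of the 7 fits without 1 library. This was 1 of the 8, where 1.06% of all genes rose. Il6 (-0.72 ± 0.59), Osm (1.35 ± 0.52) and Il10 (1.28 ± 0.96) did not pass with LPS in Ctrl-Veh mice at 24 hours. The highest Ctrl-Veh-LPS library held 10.7, 469 and 3.30 CPM of them, against group medians of 1.60, 126 and 0.743 CPM. In GW-Veh mice Il6 (-2.12 ± 0.68, edgeR adjusted p = 0.0546), Osm (0.97 ± 0.55) and Il10 (0.39 ± 1.06) did not pass either. DESeq2 and limma voom each called 4 of the 8 ligands lower there and 0 higher.

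**Figure D5:**
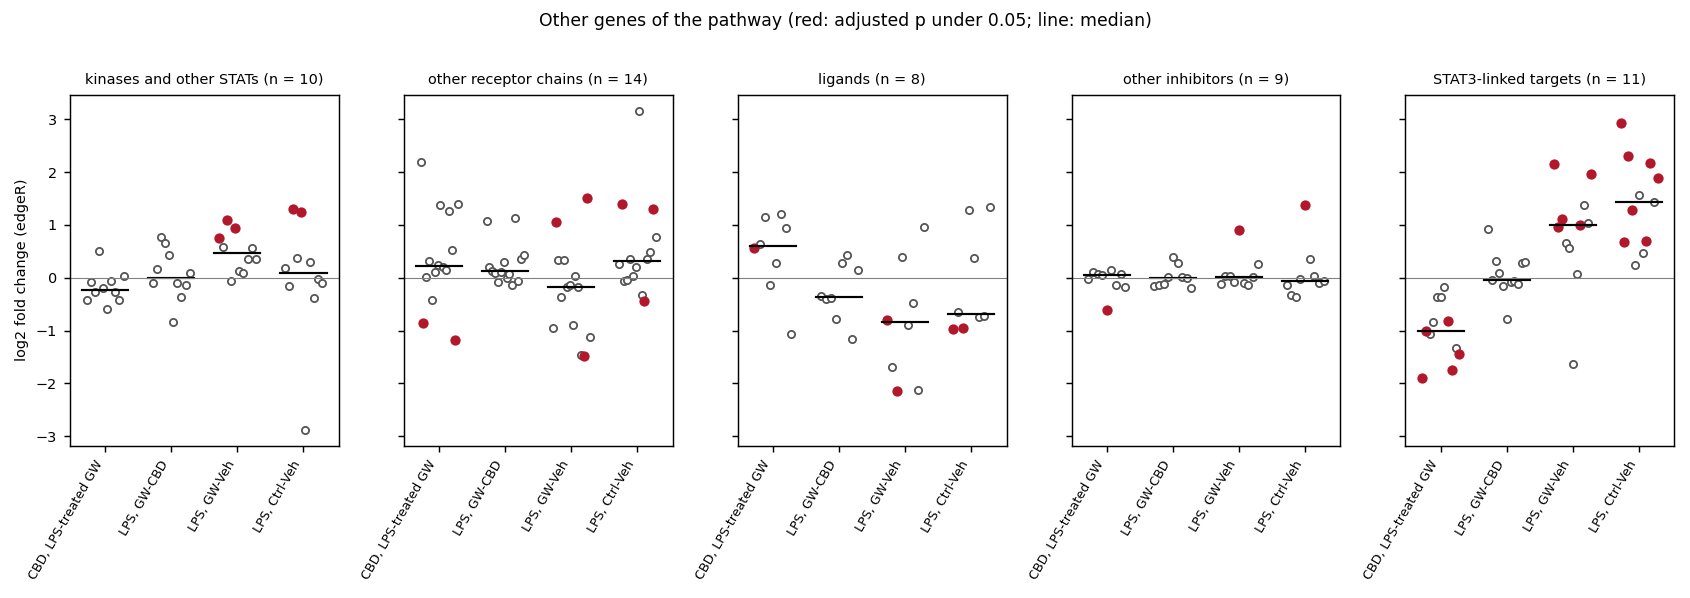
Log2 fold changes (edgeR) of the tested genes of 5 pathway lists in 4 comparisons, 1 point per gene, red where adjusted p is under 0.05, with the median as a line. The STAT3-linked targets have medians of -1.002 for CBD under LPS, and of -0.05, 1.00 and 1.43 with LPS in GW-CBD, GW-Veh and Ctrl-Veh mice.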

How the data were processed

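RNA-seq libraries (stranded, poly(A), paired-end, per the labels) were made from sorted microglia, in 6 groups of 3 or 4 libraries. The deposited values are raw read counts per gene of the authors' table, with genome build GRCm38 (mm10) per the submitters' processing notes. Which aligner and counter were used, and with which strand setting, is not given in the sources used here. Of the gene symbols, 27 that had turned into dates were restored, and 100 repeated symbols were set apart. Of the 54532 gene IDs, 54495 were found in GENCODE release M21, which gave coordinates and exon lengths.

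Genes with enough reads (edgeR filterByExpr, 16554 genes, at least 99.9% of each library's counts) were scaled by TMM and fitted with edgeR 4.0.16 (glmQLFit and glmQLFTest, R 4.3.3) as 1 model of 6 group means. Each adjusted p is Benjamini-Hochberg over all tested genes, with 0.05 as the threshold, and each edgeR log2 fold change is given ± SE. CPM of single genes are TMM-scaled, given ± SD, and summed marker CPM use library totals. The microglial list had 1 further marker that is not reported here. The common coefficient of biological variation was 0.352. Differences between responses were tested as contrasts of that model. The procedure was tested on simulated data. Alternatives were RLE scaling, no filter, DESeq2 1.42.0, limma 3.58.1 (voom with sample quality weights), the replicate number as a block, a fit restricted to the groups compared, no libraries with raised neutrophil markers, the neutrophil marker sum as a covariate, and each library left out in turn.

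The 10 genes, the pathway and marker lists and the 3 libraries with raised neutrophil markers were chosen with earlier results of these data known. All 10 are named. Of each pathway list up to 3 called genes with the smallest p in each of the 3 LPS comparisons are named, with genes that failed the filter. Genes of the lists named outside this rule (Nfil3 and Bcl6 for CBD, Clcf1 for CBD, Osmr, Stat5a, Stat6, Il6, Osm and Il10) were chosen after their values were seen.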

Additional observations from a re-analysis of the deposited data

Results flagged for a closer look

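In 6 of 40 sets of 4 libraries (10 genes in 4 groups), 1 library stood far from the other 3; chance does so in about 1 of 20. In Ctrl-Veh-LPS, replicate 1 was far above the rest for Socs1 (8.56 CPM), Socs2 (15.2 CPM) and Cish (7.61 CPM), and it is also a library with raised neutrophil markers, whose part in these values was not tested. In GW-CBD-LPS, replicate 3 was highest for Socs2 at 1.89 CPM. In Ctrl-Veh-PBS, replicate 2 was lowest for Stat3 (137 CPM) and Il6ra (158 CPM). These 6 values come from samples that the comparisons keep.

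The LPS response of GW-CBD mice differed from that of Ctrl-Veh mice by a tested log2 difference of -1.92 for Socs3 and -1.66 for Il4ra (edgeR). Exposure and CBD cannot be told apart in it.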

How the results depend on the processing

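The number of the 10 genes called moved with the test. DESeq2 and limma voom each called 5 with LPS in GW-Veh mice (3 by edgeR) and 1 for GW exposure with LPS (0), while the CBD and LPS interaction had 1 by DESeq2, 3 by voom and 1 with no filter on low counts (0). Voom called 2 with LPS in GW-CBD mice (0), 6 for CBD under LPS (3 higher and 3 lower, against 2 lower by edgeR) and 6 for the response of GW-CBD against Ctrl-Veh mice (2 higher and 4 lower, against 2 lower). For CBD under LPS the compared groups alone gave 0 and the neutrophil covariate 1. With 1 library left out, the count ran from 1 to 3 for CBD under LPS, 0 to 2 for the interaction of CBD and LPS, and 1 to 2 for the response of GW-CBD against Ctrl-Veh mice; with LPS it was 0 in GW-CBD and 3 in GW-Veh mice in every such fit, and 5 to 6 in Ctrl-Veh mice. Directions turned only in uncalled values: Socs2 with LPS in GW-CBD mice was 0.020 with the neutrophil covariate, and leaving out 1 library gave -0.20 to 1.79 for Cish with LPS in Ctrl-Veh mice (-0.20 without Ctrl-Veh-LPS replicate 1), -0.29 to 0.036 for Il10ra in GW-Veh mice (0.036 without GW-Veh-PBS replicate 2) and -0.092 to 0.040 for Il10rb in GW-CBD mice (0.040 without GW-CBD-PBS replicate 3). The cause was not tested.

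Over all genes, CBD under LPS had 382 calls by edgeR, 900 by DESeq2, 3512 by voom, 0 in the compared groups alone and 672 when the 3 libraries rich in neutrophil markers were left out. LPS in GW-CBD mice had 69, 344, 3779, 59 and 155 in the same order, LPS in GW-Veh mice 1577, 2326, 3809, 607 and 1120, and the response of GW-CBD against Ctrl-Veh mice 327, 888, 2194, 336 and 255. GW exposure with LPS had 0, 147 and 324 by edgeR, DESeq2 and voom, its interaction with LPS 0, 59 and 111, and the interaction of CBD and LPS 3, 381 and 2287. CBD with PBS had 0 by edgeR, 217 by voom and 1 in the compared groups alone.

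With the replicate block, the counts among the 10 genes were the same as without it in each of the 10 comparisons (0, 3 and 5 with LPS in GW-CBD, GW-Veh and Ctrl-Veh mice, 2 for CBD under LPS). Over all genes the block gave 0 calls with LPS in GW-CBD mice (69 without), 0 for the interaction of CBD and LPS (3), and 269 for CBD under LPS (382). Same-numbered libraries deviated with correlations of -0.285 to 0.315, so the numbers were not taken to pair them. Low counts limit Cish, Socs2 and Socs1.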

Other observations

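For each of the 5 genes called in a comparison, the genes nearest in pattern were found among 9150 tested protein-coding genes. These 9150 had a mean of at least 5 CPM, and genes with predicted, clone or pseudogene names were left out. Distance was the root mean square difference of centred log2 CPM over the 6 group means. The nearest genes are a description with no test. Arid5a (0.057), Map3k8 (0.090) and Nuak2 (0.097) lay nearest to Il4ra, and Rbpj (0.055), Slc29a2 (0.058) and Vars (0.078) to Stat3. Socs3 had no neighbour as close, with Comp at 0.19, Psat1 at 0.23 and Gpr35 at 0.23. Abcb4 (0.076), Snx29 (0.080) and Prdm1 (0.096) lay nearest to Il6st, and Snx13 (0.039), Man1c1 (0.040) and Scd2 (0.042) to Il10ra.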
